A study of Mus musculus with 6 samples.

Results

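The normal mandibular arch was described from the 3 arrays titled Tbx1+/+ among the 6 arrays of a series that profiled mandibular arches (MdPA1) of mouse embryos with and without the T-box gene Tbx1. All 3 came from C57BL/6 embryos at E10.5 that carried the wild-type genotype and had no other allele or treatment named in the labels. The arrays of Tbx1-/- embryos entered no value below. Arches dissected from 3 embryos were pooled within the genotype and 3 arrays were run. Whether each array received its own pool is not stated. The spread between arrays may therefore be technical, come from differences between embryos, or both, and its source was not tested. Levels of sex-linked genes on each array are given below.

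Each gene was represented by 1 probe set, the one with the brightest mean over these 3 arrays among the sets that named 1 gene, which gave 18194 genes. Levels are log2 values, so a step of 1 is a doubling of signal, and a level is followed by its standard deviation over the 3 arrays (SD, n = 3). A percentile gives the place of a mean level among the 18194 genes. Probes bind with unequal strength, and the median SD between the probe sets of a single gene was 1.45, so the order of genes by level is rough at steps of that size. Of 773 genes on the lists used below, 714 were measured, and the other 59 were not analysed here.

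The mandibular arch is the lower part of the first pharyngeal arch and gives rise to the lower jaw. Neural crest cells fill it with mesenchyme around a core of mesoderm that makes jaw muscle, and ectoderm outside and endoderm inside cover it. Signals from these epithelia, among them FGFs, BMPs, Wnts, Shh and endothelin, set which homeobox genes the crest cells use along the jaw's axes. The first arch forms from crest that does not use Hox genes, unlike the arches behind it.

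A level for no expression was taken from 74 genes of smell, pheromone and bitter taste receptors, which embryonic arch tissue is not known to use. Their median level was 3.88, and their 95th percentile lay at 6.40, 6.58 and 6.66 on replicates 1, 2 and 3. A gene counted as detected when it lay above that level on all 3 arrays. By that rule 10147 of 18194 genes were detected, or 55.8%, and 8047 were not, with 2 of the 74 receptor genes among the detected. The brightest receptor, the pheromone receptor Vmn2r84, read 7.76, 7.89 and 8.07, so single probe sets can pass the rule without the gene being plausible in this tissue. Detection also went with the number of probe sets a gene had. The share detected was 38.4% of genes with 1 set, 65.4% with 2, 77.9% with 3 and 87.6% with 4 or more. Of the 74 receptor genes 67 had 1 probe set, whereas genes with several were represented by their brightest. The background was thus mostly that of single sets, and may be too low for genes with several. Not detected is a statement about these probe sets at this background, and does not show that transcript is lacking.

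The brightest signals belonged to the machinery of protein synthesis. Of the 15 brightest genes, with levels from 14.85 for Rpl41 to 14.30 for Gapdh, the ribosomal protein genes were Rpl41, Rplp2, Rpl35, Rpl7a, Rpl4, Rps3a1, Rpl13a, Rpl27a, Rpl38 and Rps20. The other members were the translation elongation factor Eef1a1, the nascent chain binder Naca, the nuclear transport GTPase Ran, the actin-binding thymosin Tmsb10 and the glycolytic enzyme Gapdh. All 16 measured housekeeping genes were detected, with a median level of 13.74. All 20 measured cell cycle genes were detected too, with a median of 11.59. Pcna, the sliding clamp of DNA replication, read 13.53, 13.57 and 13.42, and Rrm2, which makes deoxynucleotides, averaged 13.35. The 35 measured genes of specialised adult tissues had a median of 4.80, and 5 of them were detected. These were the sperm protamine Prm1, the keratin Krt10, the milk protein Csn3, the myelin gene Mbp and the hormone precursor Pomc. For Prm1, Csn3 and Pomc 1 of 3, 1 of 2 and 1 of 2 probe sets was detected, for Mbp 1 of 8, and Krt10 had 1 set. Such disagreement was not particular to these genes. Of 275 detected listed genes with several sets, 174 had another set that was not detected. Among them were Ptch1, with 1 of 3 sets detected, and Trp63, with 1 of 4.

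**Figure D1:**
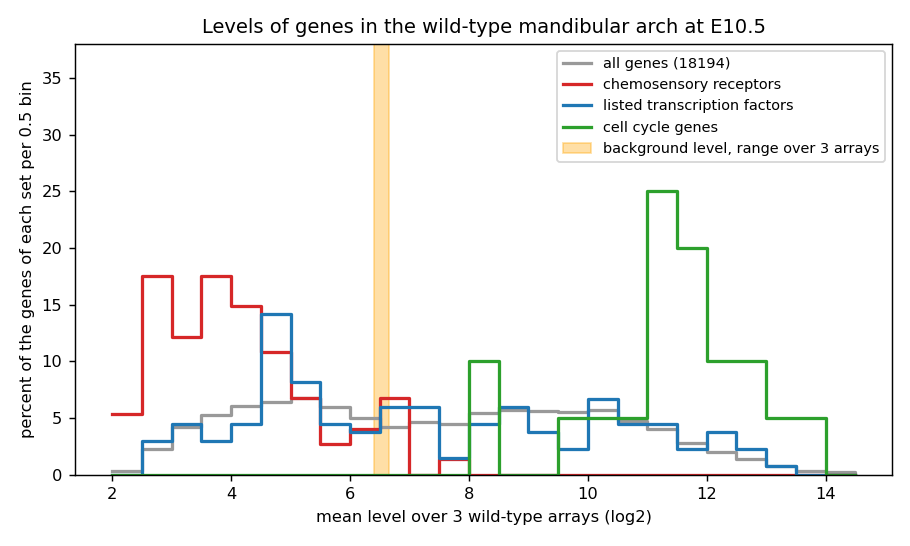
Distribution of mean log2 level over the 3 wild-type arrays for all 18194 genes, the 74 chemosensory receptors, the listed transcription factors and the 20 cell cycle genes, as percent of each set per bin of level; the band is the range of the background level over the arrays, 6.40 to 6.66. The receptors lie mostly left of the band, the cell cycle genes wholly right of it, and the transcription factors on both sides.

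The promoters of detected genes differed in base composition from those of genes not detected. RefSeq promoter windows of GRCm38.p6, 250 bases before and 50 after the first listed start, were at hand for 13269 of 16056 protein-coding genes outside chromosome 18, or 82.6%. A window counted as CpG-rich when its CpG count was at least 0.6 of that expected from its C and G content and its GC content was at least 50%. Of windows of detected genes, 6075 of 8120 or 74.8% were CpG-rich, against 1400 of 5149 or 27.2% for genes not detected, a difference of 47.6 percentage points. With genes divided into 5 equal groups by level, 18.1% of windows were CpG-rich in the lowest group, 65.5% in the middle one, 77.7% in the next and 80.8% in the highest. The group between the lowest and the middle had windows for 79.5% of its genes, and its share is not given. Among genes with 1 probe set, a split chosen after the values were seen, the shares were 71.9% for detected and 22.5% for not detected genes. The letters TATAAA, searched on both strands, stood in 9.68% of the 13269 windows, in 6.32% of those of detected genes and in 15% of the rest.

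The lists ranged from wholly CpG-rich to wholly CpG-poor promoters. All 7 windows of FGF feedback genes and 12 of 13 of housekeeping genes were CpG-rich, against 0 of 10 for cardiac, 1 of 14 for skeletal muscle and 0 of 9 for visceral endoderm and liver genes. None of the 8 windows of erythroid genes was CpG-rich, although embryonic globins were among the brightest genes of the arch. For listed transcription factors windows were at hand for only 63.6%, so no share is given for them and 4 are shown as examples. They are the brightest and the dimmest factor of each promoter class, chosen after their values were seen. This choice by itself gives each class a bright and a dim example, so no relation between level and promoter class can be read from them. Each line gives the 250 bases before the start, 5′ to 3′ on the gene's strand, with CG in capitals, from RefSeq on GRCm38.p6.

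Dlx2, CpG-rich, level 12.56, chr2:71546755-71547004, minus strand, 24 CG: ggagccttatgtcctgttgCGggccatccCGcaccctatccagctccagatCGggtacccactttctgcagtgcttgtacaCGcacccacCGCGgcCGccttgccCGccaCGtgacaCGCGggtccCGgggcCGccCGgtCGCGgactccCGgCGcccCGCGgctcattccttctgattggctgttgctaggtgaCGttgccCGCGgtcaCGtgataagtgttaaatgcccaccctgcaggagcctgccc

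Prrx1, CpG-poor, level 13.05, chr1:163313651-163313900, minus strand, 4 CG: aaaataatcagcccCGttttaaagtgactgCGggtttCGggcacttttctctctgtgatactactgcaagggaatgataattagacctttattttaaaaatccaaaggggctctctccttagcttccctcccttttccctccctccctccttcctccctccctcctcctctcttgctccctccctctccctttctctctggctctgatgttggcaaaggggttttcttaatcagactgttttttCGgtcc

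En1, CpG-rich, level 2.59, chr1:120602237-120602486, plus strand, 19 CG: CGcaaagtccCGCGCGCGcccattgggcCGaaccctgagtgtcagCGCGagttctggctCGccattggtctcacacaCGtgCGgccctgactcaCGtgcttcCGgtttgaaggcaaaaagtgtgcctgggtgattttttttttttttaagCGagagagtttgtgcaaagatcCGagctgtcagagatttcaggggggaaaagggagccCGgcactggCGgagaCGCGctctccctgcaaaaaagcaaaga

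Hoxd11, CpG-poor, level 2.86, chr2:74679308-74679557, plus strand, 2 CG: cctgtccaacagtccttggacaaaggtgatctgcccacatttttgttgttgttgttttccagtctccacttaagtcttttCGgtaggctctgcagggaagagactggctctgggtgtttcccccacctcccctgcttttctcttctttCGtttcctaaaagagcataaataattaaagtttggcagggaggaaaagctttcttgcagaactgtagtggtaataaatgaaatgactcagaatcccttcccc

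The bright pair Dlx2 and Prrx1 held 24 and 4 CG, and the dim pair En1 and Hoxd11 held 19 and 2. TATAAA was not among the letters of any of these 4 windows. By the way they were picked, each class holds 1 bright and 1 dim gene.

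Of 134 measured transcription factors 67 were detected, 50% against 55.8% of all genes, and their median level was 6.82. The lists divided sharply within that figure. The Dlx homeobox genes, which specify positions along the jaw, were all detected, 6 of 6, and lie in the genome as neighbouring pairs Dlx1 with Dlx2, Dlx3 with Dlx4 and Dlx5 with Dlx6. Dlx2 read 12.67, 12.40 and 12.60 on replicates 1 to 3. Its partner Dlx1 read 10.94, 10.70 and 10.79. Both lay in the upper part of all genes, at percentiles 97.4 and 86.6.

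Dlx5, which with Dlx6 gives the lower jaw its identity, read 11.87, 11.32 and 11.29. Dlx6 read 7.31, 7.23 and 7.12, at percentile 48.4. Dlx3 read 10.94, 10.85 and 11.19, and Dlx4 read 6.92, 6.72 and 6.71, close to the background of 6.40 to 6.66. Dlx1, Dlx2, Dlx3 and Dlx5 thus lay far above background on every array, and Dlx4 and Dlx6 lay near it. Since probe strength is unknown, the transcripts of a pair are not ranked.

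Regulators of the ventral and medial jaw were detected in 9 of 11 cases. Msx1, a homeobox target of BMP signalling, read 11.15, 11.35 and 11.38. Tbx3, a T-box repressor, read 11.03, 10.93 and 11.28. Hand2, the bHLH factor that acts downstream of endothelin in the distal jaw, read 10.43, 10.76 and 10.66, and its relative Hand1 averaged 8.59 ± 0.22. Barx1, a homeobox gene of the molar region, averaged 10.02 ± 0.15 and Gsc, a homeobox gene of the middle jaw, 8.59 ± 0.39. The members not detected were Alx4, a homeobox gene of the upper face, at 4.87 ± 0.17, and Nkx3-2, which marks the future jaw joint, at 4.64 ± 0.05. Both had 1 probe set.

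Regulators of crest mesenchyme had 23 of 25 members detected and a median of 10.37. Prrx1, a homeobox gene of limb and face mesenchyme, read 13.03, 12.98 and 13.16. Lhx8, a LIM homeobox gene of oral mesenchyme, read 12.87, 12.76 and 12.99, and its relative Lhx6 read 8.90, 8.96 and 8.93. Nr2f2, an orphan nuclear receptor, averaged 12.84 ± 0.14 and Twist1, the bHLH factor of crest mesenchyme, 12.36 ± 0.05. The pair not detected were Osr2, a zinc finger gene of the palate, which read 6.85, 7.21 and 5.91, and Six2, which read 6.80, 6.72 and 6.39. Both lay above the background on replicates 1 and 2 and below it on replicate 3.

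Forkhead factors of the arch were detected in 9 of 10 cases, with Foxp1 at 11.70 ± 0.19, Foxc2 at 10.91 ± 0.12 and Foxf1 at 10.67 ± 0.15. Foxl1, at 5.16 ± 0.25, was the member not detected. Over the whole Fox family, 21 of 37 measured genes were detected, near the 55.8% of all genes. The brightest were the widely used Foxk2 at 12.31 ± 0.14 and Foxn3 at 11.90 ± 0.06. The Sox family had 12 of 19 genes detected, beside the same 55.8% of all genes. Its brightest members were Sox11 at 14.11 ± 0.08, at percentile 99.8, and Sox4 at 12.56 ± 0.10, both SoxC factors of progenitor cells.

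Of the core mesoderm and myogenic factors 9 of 15 were detected, or 60%, near the 55.8% of all genes. Ebf3, an early B-cell factor family member found in mesenchyme, read 12.32, 12.34 and 12.34, the LIM homeobox gene Isl1 averaged 10.43 ± 0.09 and Six4 averaged 10.31 ± 0.08. Myf5, the first of the muscle determination factors, read 7.58, 7.75 and 7.51. Myod1, which follows it, read 6.40, 6.62 and 6.65 and was not detected, and Myog, the factor of differentiating muscle, averaged 5.37 ± 0.22. Tcf21, a bHLH factor of branchial muscle precursors, averaged 7.15 ± 0.16. Tbx1, whose loss the series studied, read 6.93, 7.31 and 6.92, an average of 7.06 ± 0.22 at percentile 46.9. It lay above background on every array, by less than 1. Its signal is that of a whole arch, in which only core mesoderm and parts of the epithelia are known to use it. In such bulk tissue fewer cells of a type and less RNA per cell cannot be told apart.

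Factors of the oral ectoderm were detected in 5 of 7 cases. Trp63, the p63 factor of stratified epithelium, read 11.66, 11.38 and 11.23. Grhl2, a grainyhead factor of epithelium, averaged 10.36 ± 0.20, and Pitx1, a homeobox gene of the mandibular side, 9.88 ± 0.06. Of the pharyngeal endoderm factors 3 of 12 were detected: Foxa1 at 8.02 ± 0.26, Sox17, shared with endothelium, at 7.23 ± 0.32, and Hhex at 6.88 ± 0.20. Not detected were Foxn1, Pax1 and Pax8, factors of thymus, pouch and thyroid, and Foxa2 at 6.17 ± 0.15.

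Hox genes, which give positional identity behind the first arch, and cardiac markers were the lists with no detected member. Of the Hox genes 0 of 33 passed the rule, and their median level was 4.74, where all genes had a median of 7.40. The brightest was Hoxc8, which read 6.19, 6.86 and 7.49, below background on replicate 1 and above it on the other 2 arrays, so leaving out replicate 1 made 1 of 33 detected. Next came Hoxc6 at 6.27 ± 0.08. Hoxa2, which the second arch needs for its identity, read 3.54, 3.16 and 3.15, at percentile 4.75. The Nkx family likewise had 0 of 12 genes detected, with Nkx2-9 brightest at 6.52 ± 0.25. Of 15 factors of brain or maxillary patterning 3 were detected: Pou3f3 at 9.21 ± 0.39, Emx2 at 8.96 ± 0.26 and Gbx2 at 8.16 ± 0.20, whereas En1 at 2.59 ± 0.13 and Otx1 at 3.03 ± 0.29 were among the lowest of all genes.

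**Figure D2:**
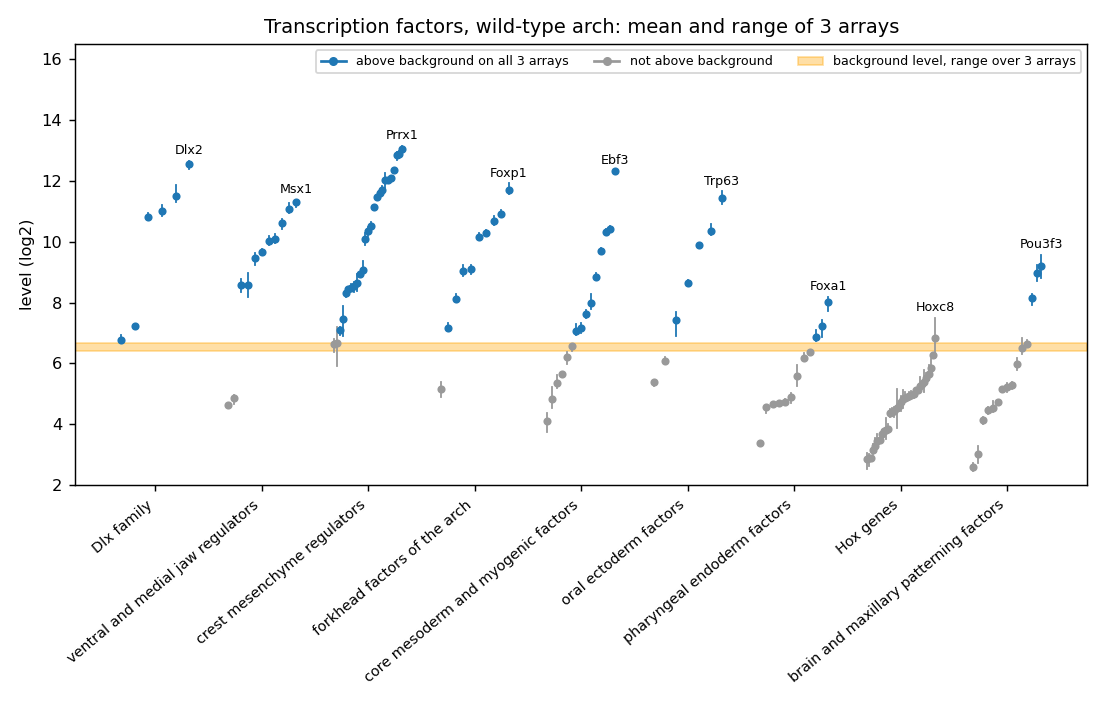
Log2 level of each listed transcription factor, with a point for the mean and a line for the range over the 3 wild-type arrays, by list and sorted within it; the brightest member is named, and the band is the background level. All 6 Dlx genes and 23 of 25 crest mesenchyme regulators lie above the band, and no Hox gene does on all 3 arrays.

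Ligands and receptors differed in how often they were detected. Of 97 signalling ligands 33 were detected, or 34%, with a median level of 5.93. Of 81 receptors 69 were detected, or 85.2%, with a median of 8.75. Pathway modulators and targets had 53 of 70 detected, or 75.7%, against 55.8% of all genes. Among genes with 1 probe set, 5 of 43 ligands and 10 of 14 receptors were detected, and among genes with several, 28 of 54 ligands and 59 of 67 receptors. Receptors were thus detected more often at both numbers of probe sets, a split chosen after the values were seen. The size of the excess of receptors over all genes depended on the rule for the probe set. With the mean of a gene's sets 50 of 81 receptors were detected, or 61.7%, against 48.4% of all genes. Of ligands 30 of 97 were, or 30.9%. The median probe set was also tried, and where the number of sets was even the dimmer of the middle pair was taken. By that rule 35 of 81 receptors were detected, or 43.2%, near the 41.4% of all genes. Of ligands 24 of 97 were, or 24.7%.

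In the FGF pathway 2 of 18 ligands were detected. Fgf8, which the oral ectoderm makes to pattern and sustain the arch, read 6.92, 6.71 and 6.82, just above background. Fgf9, another epithelial ligand, read 7.65, 7.52 and 7.58, and Fgf10 averaged 6.10 ± 0.21 and was not detected. The receptors were detected in 4 of 5 cases, with Fgfr2 at 11.96 ± 0.09, Fgfr1 at 10.04 ± 0.03 and the decoy receptor Fgfrl1 at 9.68 ± 0.25. Fgfr4 was not, at 4.68 ± 0.12 with 0 of 5 probe sets detected. All 9 feedback genes and targets were detected. Dusp6, a phosphatase that ERK signalling induces, read 11.97, 11.58 and 11.74, Spred1 averaged 11.31 ± 0.20 and Spry2, a Sprouty inhibitor, 11.23 ± 0.22. The dimmest detected receptor was Fgfr3 at 7.34 ± 0.10, and the dimmest feedback genes were Spry4 at 8.17 ± 0.05, Spry1 at 8.03 ± 0.04 and Etv4 at 7.59 ± 0.07. The pathway thus had few detected ligands, and receptors and feedback genes that were nearly all detected.

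Of 21 BMP and TGF-beta ligands 6 were detected, namely Tgfb2, Bmp4, Bmp7, Bmp1, Bmp5 and Tgfb3. Bmp4, which the distal ectoderm makes and which induces Msx1, read 8.91, 9.56 and 9.13. Tgfb2 averaged 9.57 ± 0.22 and Bmp7 8.17 ± 0.24, while Bmp2 read 6.31, 6.81 and 6.17 and was not detected. Of the receptors 12 of 14 were detected, with Tgfbr1 at 12.15 ± 0.07, Acvr2a at 11.93 ± 0.20 and Bmpr1a at 11.62 ± 0.13. Not detected were the receptor of anti-Müllerian hormone, Amhr2, and the nodal receptor Acvr1c. Of antagonists and targets 12 of 16 were detected, led by the BMP-binding protein Twsg1 at 12.38 ± 0.06 and the transducers Smad4 and Smad1 at 12.09 ± 0.12 and 11.94 ± 0.11. The secreted antagonists Chrd at 5.61 ± 0.13, Grem1 at 5.03 ± 0.22 and Nog at 3.54 ± 0.01 were not detected. Fst read 7.09, 7.28 and 6.63, short of the background on replicate 3 only.

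Of 19 Wnt ligands 5 were detected. Wnt5a, which guides outgrowth of the distal arch without beta-catenin, read 10.28, 9.51 and 9.84. Wnt5b averaged 8.64 ± 0.28, and Wnt9b, a ligand of facial ectoderm, read 8.20, 9.03 and 8.33, highest on replicate 2. Wnt6 and Wnt4 were the remaining detected ligands, at 8.23 ± 0.18 and 7.68 ± 0.14. Receptors and co-receptors were detected in 16 of 18 cases, led by Fzd2 at 12.70 ± 0.03, Fzd7 at 11.45 ± 0.13 and Fzd1 at 11.35 ± 0.25. Of modulators and targets 10 of 17 were detected, or 58.8%, near the 55.8% of all genes. Lef1 at 11.69 ± 0.19 and Axin2 at 11.44 ± 0.09, both targets of beta-catenin, and the secreted inhibitor Sfrp2 at 11.67 ± 0.11 were brightest.

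Shh, made by the arch's epithelium, was the 1 hedgehog ligand of 3 detected, with readings of 9.88, 9.63 and 9.78. Dhh and Ihh averaged 4.99 ± 0.10 and 4.49 ± 0.10. Receptors and co-receptors were detected in 5 of 6 cases. Ptch1, both receptor and target, read 12.69, 12.69 and 12.70, and Gas1, a co-receptor, averaged 12.49 ± 0.13. Hhip, a hedgehog-binding target, read 6.69, 6.83 and 6.52, below background on replicate 3, with 0 of 4 probe sets detected. The 3 Gli factors and their inhibitor Sufu were all detected, with Gli3 at 12.11 ± 0.11 and Sufu at 9.02 ± 0.08. Gli1, itself a direct target, lay at percentile 55.6.

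In the endothelin pathway the ligand known to pattern the lower jaw lay below background. Edn1 read 5.82, 5.99 and 5.98 on its 1 probe set, and all 3 readings were below the background of their arrays. Edn3 read 8.19, 8.38 and 8.05, with 2 of its 4 probe sets detected, and Edn2 averaged 4.59 ± 0.19. The receptor Ednrb, known from crest that makes pigment cells and gut neurons, read 7.60, 7.85 and 7.59. The gene of the Edn1 receptor in jaw mesenchyme, Ednra, was not analysed here. The 5 genes of ligand processing and downstream signalling were all detected, with the protease Furin at 10.92 ± 0.11 and the converting enzyme Ece1 at 10.77 ± 0.05. Hand2 and Dlx5, which are known to depend on Edn1, averaged 10.62 ± 0.17 and 11.49 ± 0.32.

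Of 5 Notch ligands 2 were detected, Jag1 at 10.39 ± 0.21 and Jag2 at 8.94 ± 0.36. All 4 Notch receptors were detected, led by Notch2 at 12.27 ± 0.23 and Notch3 at 10.65 ± 0.09. Of targets and modifiers 6 of 10 were, near the 55.8% of all genes, led by Hes6, Hey1 and Rfng. Among other growth factors and chemokines 16 of 28 were detected, or 57.1%, also near the share of all genes. These held the brightest of the listed ligands. The fetal growth factor Igf2 read 13.60, 13.73 and 13.67, and the heparin-binding midkine gene Mdk read 13.30, 13.14 and 13.19. Pdgfc averaged 12.84 ± 0.08 and Pdgfa 12.65 ± 0.07, and their receptor gene Pdgfra, needed by crest mesenchyme, averaged 11.85 ± 0.08. Of the 27 other growth factor receptors 22 were detected, and Ret, Erbb4, Gfra3, Gfra1 and Ngfr, receptors known from neurons and glia, were not.

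Retinoic acid is a vitamin A product whose excess disturbs the arches. The binding proteins Crabp2 and Crabp1 averaged 13.07 ± 0.11 and 13.06 ± 0.17, both at percentile 98.7. Cyp26a1, which degrades retinoic acid, read 7.88, 8.30 and 7.85. Aldh1a2, the main enzyme of its synthesis in the trunk and posterior pharynx, read 7.72, 8.10 and 6.81, lowest on replicate 3. Of the retinoid receptors 5 of 6 were detected, with Rxra at 10.65 ± 0.11 and Rxrg, at 5.18 ± 0.17, not.

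**Figure D3:**
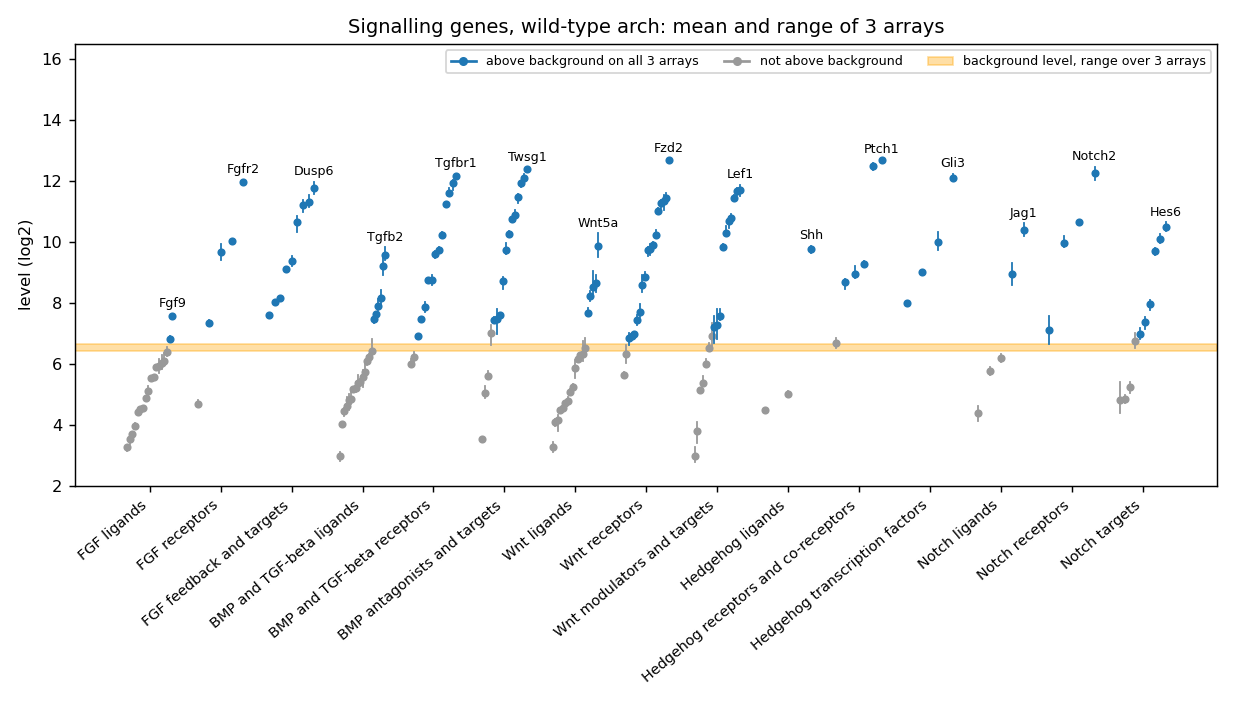
Log2 level of the listed genes of 5 signalling pathways, with a point for the mean and a line for the range over the 3 wild-type arrays, grouped as ligands, receptors, and targets or modulators; the brightest member is named, and the band is the background level. In the FGF lists 2 of 18 ligands, 4 of 5 receptors and 9 of 9 feedback genes lie above the band.

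Of 77 matrix genes 49 were detected, or 63.6%, near the 55.8% of all genes, and their median level was 8.14. Among fibrillar and associated collagens 12 of 20 were detected, or 60%, also near the share of all genes. Col3a1, a collagen of loose connective tissue, averaged 12.25 ± 0.25, Col9a1 12.05 ± 0.16 and Col2a1 11.07 ± 0.15. The last pair are best known from cartilage, but many embryonic epithelia and mesenchymes use them too. Of basement membrane genes 16 of 22 were detected, led by Agrn at 11.37 ± 0.09, Col4a1 at 11.28 ± 0.25 and Nid1 at 11.04 ± 0.13. The laminin chains of skin anchorage, Lama3 at 5.22 ± 0.13 and Lamb3 at 5.31 ± 0.09, and the collagen chains Col4a3, Col4a4 and Col4a6 were not.

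Of glycoproteins and proteoglycans 19 of 30 were detected, with the heparan sulphate carriers Sdc1, Gpc1 and Gpc3 brightest at 13.14 ± 0.09, 12.40 ± 0.07 and 12.38 ± 0.27. Not detected were the cartilage matrix genes Acan at 4.87 ± 0.05, Comp at 4.67 ± 0.10 and Matn1 at 3.87 ± 0.22. Has2, the hyaluronan synthase of embryonic mesenchyme, read 9.31, 9.27 and 9.22, whereas Has1 and Has3 averaged 4.66 ± 0.21 and 4.17 ± 0.17. Of 12 genes of cartilage and bone differentiation 5 were detected: Sox6 at 8.33 ± 0.15, Sox5 at 8.29 ± 0.05, Alpl, Runx1 and Ucma. Sp7, which osteoblasts need, read 5.88, 5.55 and 5.65, and the bone protein gene Ibsp averaged 4.98. Sox9, the chondrogenic master factor that crest also uses, was listed with the crest regulators and read 10.43, 10.19 and 10.48. The early factor Sox9 was thus bright while Acan, Comp and Matn1, with 1 probe set each, were not detected. Other genes known from cartilage were detected, among them Col2a1, Col9a1 and the link protein gene Hapln1. Hapln1 averaged 10.66 ± 0.32, with 1 of its 4 probe sets detected.

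Of 153 measured cell type markers 69 were detected, or 45.1%, against 55.8% of all genes, and the lists differed widely. Markers of the main parts of the labelled tissue, mesenchyme, epithelium and vessels, were nearly all detected. All 9 mesenchyme markers were detected, with a median of 11.85, and Vim, the mesenchymal intermediate filament, averaged 12.99 ± 0.07. Of epithelium markers 14 of 16 were detected, with a median of 10.27, led by the simple keratin gene Krt18 at 11.74 ± 0.11. Krt15, which read above background on 2 arrays, and Cldn4 were the exceptions. Of endothelium markers 15 of 16 were detected, with a median of 7.86, led by Emcn at 9.15 ± 0.24, Tek at 8.81 ± 0.19 and Kdr at 8.74 ± 0.11. Erg, at 6.27 ± 0.23, was not.

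Embryonic globins were among the brightest genes of the arch. Hbb-y, the embryonic beta-like globin of yolk sac red cells, read 13.85, 13.95 and 13.89, at percentile 99.7. Hba-x averaged 13.73 ± 0.05 and Hbb-bh1 13.27 ± 0.01. The adult globin gene Hba-a1 averaged 3.00 ± 0.03, below background, on the 1 probe set that named it alone. Sets naming several genes were left out, and the adult globin gene Hbb-b1 was not analysed here. Adult globins as a whole are therefore not described by this value. Of erythroid markers 7 of 10 were detected, and the 3 embryonic globins had almost the same level on each array. Of macrophage markers 5 of 14 were detected, led by the complement gene C1qb at 8.22 ± 0.29 and Csf1r at 7.44 ± 0.47, and Aif1, Adgre1 and Ptprc were among those that were not.

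Few markers of differentiated neurons, glia and muscle were detected. Of neuron markers 3 of 16 were detected: Isl1, which arch mesoderm also uses, Elavl2 at 9.18 ± 0.18, and Elavl4, which read 6.67, 6.62 and 6.66 at the edge of background. Tubb3 at 6.38 ± 0.32 and Stmn2 at 4.95 ± 0.30 were not detected. Of 8 glia and migratory crest markers 2 were detected, Erbb3 at 9.11 ± 0.13 and Ednrb, while Sox10 at 5.73 ± 0.19 and Foxd3 at 3.83 ± 0.31, which crest cells use before they settle, were not. Of 14 skeletal muscle markers 3 were detected, Tnnt1, Des and Cdh15, and 5 were without replicate 3. Actc1, an embryonic muscle actin, read 6.41, 7.69 and 6.44, above background on replicates 1 and 2. Cardiac markers were detected in 0 of 10 cases, with Ryr2 brightest at 5.70. Smooth muscle and pericyte markers were detected in 4 of 9 cases, led by Pdgfrb at 9.79 ± 0.25 and Rgs5 at 9.53 ± 0.06. Of placenta and decidua markers 1 of 10 was, Hand1, which is also a jaw gene.

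**Figure D4:**
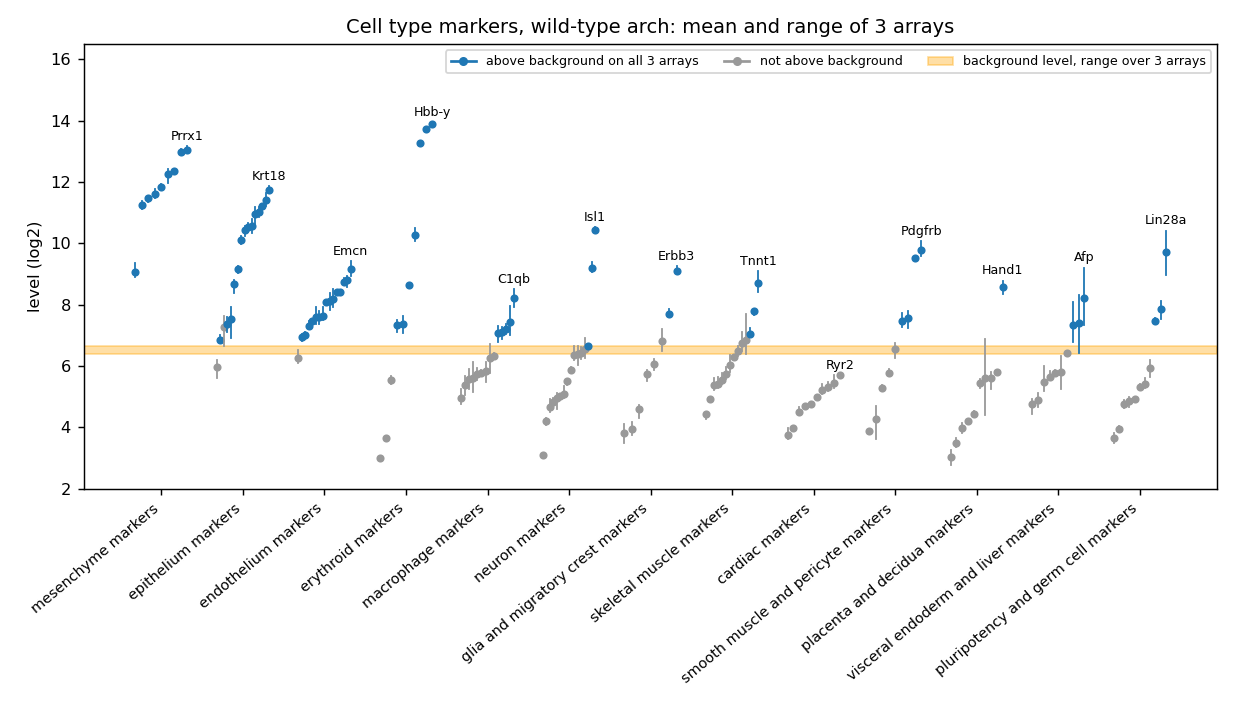
Log2 level of each cell type marker, with a point for the mean and a line for the range over the 3 wild-type arrays; the brightest member is named, and the band is the background level. All 9 mesenchyme markers, 14 of 16 epithelium markers, 15 of 16 endothelium markers and the 3 embryonic globins lie above the band on all 3 arrays, and the 10 cardiac markers lie below it.

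The 3 arrays were close to each other. The SD of the difference between a pair of arrays over the 18194 genes was 0.263, 0.247 and 0.237, and the median SD of a gene over the arrays was 0.133, or 0.123 for detected genes. It was widest at levels from 6 to 8, with a median of 0.155, and narrowest above 12, at 0.0811. On any array, 8 of 10147 detected genes lay more than 1 from the mean of the other 2 arrays: Afp, Ttr, Apoa1, Pdia4, Usf1, Lin28a, Aldh1a2 and Shox2.

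Among detected genes, Ttr and Afp, markers of visceral endoderm and liver, had the largest SDs, 0.95 and 0.94. Ttr, the thyroid hormone carrier, read 6.42, 8.32 and 7.42. Afp, the fetal serum protein, read 7.34, 9.21 and 8.11. Apoa1, a lipoprotein of the same tissues, read 6.79, 8.07 and 7.19. All 3 were lowest on replicate 1 and highest on replicate 2, and the median deviation of these detected members from their means was -0.88, 0.94 and -0.11. The other 7 of 10 measured markers of these tissues were not detected, among them Alb at 5.65 ± 0.17, Fgb at 5.78 ± 0.09 and Apob at 5.80 ± 0.54. Counting detected and undetected markers, 9 of 10 were highest on replicate 2, against 41.1% of all genes. Of the 10, 6 were also lowest on replicate 1, against 24.5% of all genes. Both counts include Ttr, Afp and Apoa1, so they are not separate from the order described for those genes. The source of this order was not tested.

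Col6a1 and Col6a2, chains of collagen VI, read 6.82, 7.83 and 6.95, and 7.20, 8.19 and 7.60, which is the same order of arrays. Another chain, Col6a3, was not detected and read 6.23, 6.68 and 5.61, highest on replicate 2 but lowest on replicate 3. Other genes had other orders. Aldh1a2, Krt5, Gjb2 and Shox2 were lowest on replicate 3: Krt5, a basal keratin gene, read 7.75, 7.93 and 6.91, the gap junction gene Gjb2 read 9.69, 9.85 and 8.89, and the homeobox gene Shox2 read 9.29, 9.19 and 8.21. Pdia4, a chaperone of the endoplasmic reticulum, read 10.67, 9.52 and 9.20, highest on replicate 1. Lin28a, an RNA-binding protein of early embryos, read 9.77, 8.98 and 10.40, lowest on replicate 2.

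Genes of the sex chromosomes also differed between arrays. Xist, the RNA that silences an X chromosome in female cells, read 10.44, 11.00 and 11.53. The Y-linked genes ran the other way: Eif2s3y read 10.63, 10.20 and 10.03, Kdm5d read 8.84, 8.26 and 8.06, and Uty read 7.35, 7.10 and 6.07. Replicate 1 had the lowest Xist and the highest Y-linked levels, and replicate 3 the reverse, and every array had Xist, Eif2s3y and Kdm5d above background. The part of the sexes of the pooled embryos in this order was not tested.

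**Figure D5:**
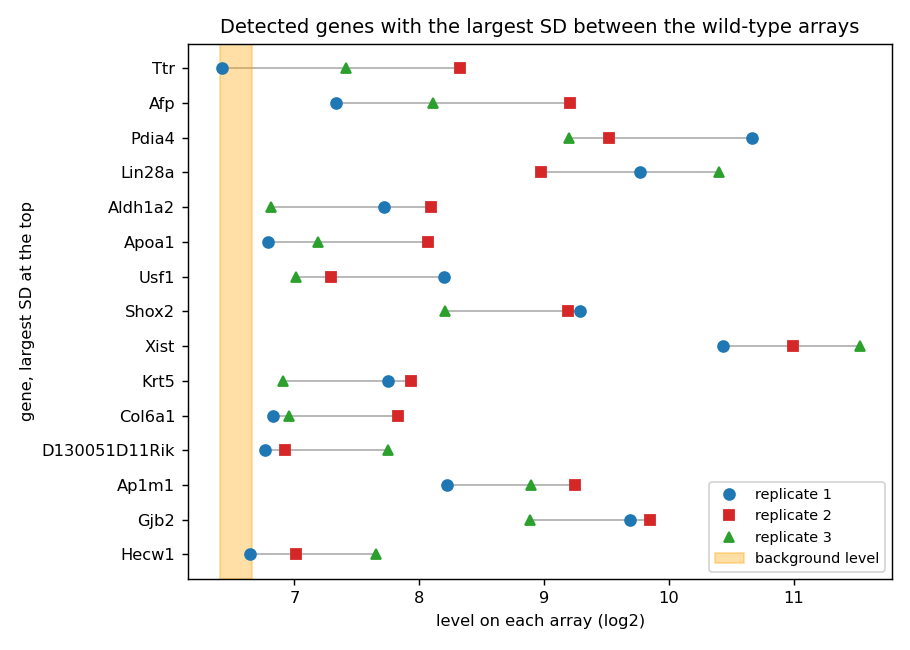
Log2 level on each of the 3 wild-type arrays for the 15 detected genes with the largest SD between them, largest at the top; the line joins the lowest and the highest array, and the band is the background level. Ttr, Afp and Apoa1 are lowest on replicate 1 and highest on replicate 2.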

How the data were processed

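Total RNA of mandibular arches was amplified from 100 ng, labelled and hybridised to Affymetrix whole-genome mouse arrays, per the labels' protocols. Each probe set has a deposited log2 value. Per the submitters' processing notes the authors made these with GCRMA, of unstated version. GCRMA corrects background by probe sequence and equalises the distributions of arrays, which hides shifts of all genes and compresses low values. That the scale is log2 was read from the values, which ran from 1.95 to 15.11, with array medians of 6.10, 6.12 and 6.15. No pair of arrays was identical.

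Of 45101 probe sets, 34958 named 1 gene in the platform annotation, 932 named several, 9160 named none, and 64 were controls, some of which also name a gene. Of 18194 genes 18032 were matched to RefSeq by gene ID, which changed 0 symbols. The 3 Tbx1-/- arrays were not used. No groups were compared and no test was run. Detection, spread and promoter composition were computed in Python 3.11.15 with pandas 2.3.3 and numpy 2.4.6, and the code was tested on simulated data. Depth does not apply to arrays, and 3 arrays limit the precision. Alternatives were other background levels, other rules for the probe set, further normalization and leaving out each array.

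The arrays, gene lists and naming rule were chosen with earlier results of these data known. The rule allowed any listed gene, Tbx1, the 15 brightest genes, the 15 detected genes with the largest SD and the brightest 2 of each of several gene families; which of these the text prints was chosen after their values were seen. The restriction of promoters to protein-coding genes outside chromosome 18 and to the first listed start was also chosen after the files were seen.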

Additional observations from a re-analysis of the deposited data

Results flagged for a closer look

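Probe sets outside the gene-level description also carried signal. Of 10092 probe sets that named no gene or several, controls left out, 2088 lay above the background level on all 3 wild-type arrays, and none of them entered the values above.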

How the results depend on the processing

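Counts of detected genes depended most on the background level and the probe set chosen. At a fixed level of 4, 15669 genes were detected, with 118 transcription factors, 88 ligands, 10 skeletal differentiation genes, 139 cell type markers and 28 of 35 adult tissue genes, and 30 genes lay over 1 from the other arrays. With the median probe set 35 of 81 receptors were detected, or 43.2%, where all genes had 41.4%. For an even number of sets that rule took the dimmer of the middle pair. With the mean of a gene's sets 50 receptors were detected, or 61.7%, where all genes had 48.4%. Skeletal differentiation genes numbered 2 at the 99th percentile of the receptors, 3 with the mean of a gene's sets and 2 with the median set, and adult tissue genes 3, 2 and 2 with the mean, with the median and without sets ending in _x_at or _s_at. Genes over 1 from the other arrays numbered 13 and 4 at the 90th and 99th percentiles, 14 at a fixed level of 6 and 2 with the mean of sets. The CpG difference was 48.9 and 45.6 percentage points at the 90th and 99th percentiles, 46.4 and 48.9 at fixed levels of 4 and 6, 41.4 with the mean and 35.2 with the median of sets, and 46.5 without the _x_at and _s_at sets. Leaving out each array gave 10180 to 10358 detected genes, 68 to 70 transcription factors, 33 to 35 ligands, 69 to 70 receptors, 53 to 57 modulators and targets, 49 to 51 matrix genes, 69 to 74 cell type markers and a CpG difference of 47.5 to 48.0 points. Taking the mean of a gene's sets moved 380 of 714 listed levels by more than their SD, which limits every level given. Of 275 detected listed genes with several probe sets, 174 had another set that was not detected. Counts moved by over 1.5 times for 25 of 55 lists at a fixed level of 4 and for 19 with the median set, while further normalization and centring moved 0. At the 99th percentile 1 of 18 FGF ligands was detected. The causes were not tested. No paired analysis was possible because only wild-type arrays were used, no groups were compared and the result comes from no test.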

Other observations

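Of 19 hypoxia and glycolysis genes 18 were detected, against 55.8% of all genes, with a median of 10.56: Ldha, lactate dehydrogenase, averaged 13.50 ± 0.05 (SD, n = 3), Aldoa 13.32 ± 0.06 and the glucose transporter gene Slc2a1 12.84 ± 0.12. Car9, a carbonic anhydrase that low oxygen induces, averaged 4.77 ± 0.06 and was not detected. Of 19 immediate early genes 11 were detected, or 57.9%, near the share of all genes, and their median was 6.98. Dusp1 averaged 11.12 ± 0.11 and Klf6 10.62 ± 0.13, whereas Fos, which dissection can induce, averaged 7.20 ± 0.24 and Fosb and Egr2 averaged 3.38 ± 0.13 and 4.49 ± 0.31.

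Pluripotency and germ cell genes were detected in 3 of 11 cases, Lin28a, Kit and Dppa5a, and Nanog, Pou5f1 and Zfp42 were not, at 5.92 ± 0.28, 5.42 ± 0.16 and 3.65 ± 0.17. Of T-box genes 4 of 12 were detected: Tbx3, Tbx2, Tbx22 and Tbx1. Tbx22, a gene of palate and tongue development, read 8.43, 8.11 and 8.17. The Klf family of zinc finger factors had 15 of 16 members detected, and the Irx, Gata, Pax, Lhx and Pou families 4 of 6, 3 of 6, 2 of 8, 2 of 8 and 2 of 11. Over all genes the detected share was 55.8%. The placental gene Prl8a2 had readings of 5.52, 4.41 and 6.87, an SD of 1.23, and passed the background on replicate 3 only.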
